A study of Mus musculus with 16 samples.

Results

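The 26S proteasome genes were examined in the hippocampus of mice with and without status epilepticus (SE), a prolonged seizure. The genes are those whose symbol is Psma, Psmb, Psmc, Psmd, Psme, Psmf or Psmg followed by a number, together with Pomp and Nfe2l1. Of 22180 genes measured, 49 were members. Each gene was represented by the probe set that carried only its symbol and had the highest mean over all arrays, and for 46 of the members there was only 1 such probe set. Psma4 was not used here, because its 2 probe sets carry several symbols.

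There were 16 Affymetrix arrays in 4 groups of 4, each hybridised to biotin-labelled cDNA from total hippocampal RNA of C57BL/6 mice aged 8 to 10 weeks. Control mice were wild type with a glial cre, and Astro-D2KO mice carried floxed D2 with the same glial cre, which by the name of the strain removes Dio2, the gene of the deiodinase that activates thyroid hormone, from astrocytes. The cre driver is not named in the sources used here. All 4 groups were given lithium (LiCl, 10 mEq/kg), and after 18 h the saline groups received saline and the SE groups pilocarpine at 65 mg/kg. The seizures and the drug cannot be told apart, and the sex, the hour of collection and whether each array is a separate animal do not stand in the sources used here, so p-values measure the spread between these arrays. The series set out to learn whether SE modifies thyroid hormone metabolism and how that affects the acute response of the hippocampus.

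The proteasome degrades proteins that carry ubiquitin chains. Its barrel-shaped core particle stacks rings of alpha subunits (Psma genes) around rings of beta subunits (Psmb genes), of which Psmb5, Psmb6 and Psmb7 hold the active sites. Psmb8, Psmb9 and Psmb10 replace these in the immunoproteasome of immune or interferon-treated cells. A regulatory cap of ATPases (Psmc genes), which unfold the substrate, and non-ATPases (most Psmd genes), which bind and cut off the ubiquitin, sits on the ends of the barrel. Other members are alternative caps (Psme genes), an inhibitor (Psmf1), dedicated assembly chaperones (Pomp, the Psmg genes, Psmd5, Psmd9 and Psmd10), and the transcription factor Nfe2l1, which raises proteasome genes when proteasome activity is low. In neurons the proteasome also takes part in the turnover of synaptic proteins.

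The targeted gene set an array of each SE group apart from the others of its group. Dio2 read 7.87 to 8.28 in control saline, 7.99 to 9.51 in control SE, 6.52 to 7.09 in Astro-D2KO saline and 7.03 to 8.91 in Astro-D2KO SE, in log2 units. The array labelled control SE replicate 4 read 7.99, below the other control SE arrays at 9.11 to 9.51. That value lay within the control saline range. Among the SE arrays it lay between the other control SE arrays and the Astro-D2KO SE arrays at 7.03 to 7.17. The array labelled Astro-D2KO SE replicate 1 read 8.91, above the others of its group at 7.03 to 7.17 and above the control saline range. This value went against the genotype label, and that of control SE replicate 4 was low for its group. Whether the labels of both arrays are right was not tested. The counts of members called are therefore given with and without both arrays. The list mean of 10 neuronal markers was 10.65 to 10.80 over all arrays. The list mean of 7 choroid plexus markers varied within every group, from 5.90 to 8.22 over all arrays.

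After SE most proteasome genes stayed within a narrow range, and a few moved in opposite directions. In control mice Psme4 and Psme3, which encode alternative activators, Psmd11 of the cap lid and the cap ATPase Psmc6 rose, while the assembly chaperones Psmg2 and Psmd5, the catalytic subunit Psmb5 and the transcription factor Nfe2l1 fell. In Astro-D2KO mice Psme4 rose, and Psmg2, Psmd5 and Psmb5 fell. The test was limma over all genes, with p-values adjusted by Benjamini-Hochberg and a threshold of 0.05. It called 4 members higher and 4 lower in control mice, 16.3% of the 49, where the same test called 22.1% of all genes (8.42% higher and 13.7% lower). In Astro-D2KO mice it called 1 member higher and 3 lower, 8.16% of the members, against 20.1% of all genes (7.49% higher and 12.6% lower). The members' shares were thus below those of all genes in both genotypes; this is a description, and no test of the difference was made. Without both arrays set apart by Dio2, limma called 1 member higher and 4 lower in control mice, and 1 higher and 3 lower in Astro-D2KO mice. The share of all genes called in that setting is not given here. At limma's unadjusted p under 0.05 it gave 17 members in control mice (34.7%, against 32.7% of all genes). With all arrays these were 12 (24.5%, against 33.0%). In Astro-D2KO mice there were 8 members without both arrays (16.3%, against 30.0%) and 8 with all arrays (16.3%, against 30.8%). In whole tissue, fewer cells of a type and less RNA per cell cannot be told apart.

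The size of the changes was small. The median change of the members was -0.05 on the log2 scale in control mice, against -0.02 for all genes, and it was -0.09 without the array labelled control SE replicate 4. In Astro-D2KO mice the medians were -0.01 for both the members and all genes. Changes of more than 1.2-fold were measured for 8 members in control mice (16.3%, against 27.8% of all genes) and for 5 in Astro-D2KO mice (10.2%, against 25.9%). Without both arrays set apart by Dio2 there were 10 (20.4%, against 28.8%) and 5 (10.2%, against 26.7%). Only Psmg2 and Psme4 moved more than 1.5-fold in control mice, and only Psmg2 did in Astro-D2KO mice. The median spread within a group was 0.125 for the members and 0.151 for all genes, as a standard deviation of log2 values. Of the members, 34 of 49 had the same sign in both genotypes (69.4%, against 73.6% of all genes).

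**Figure D1:**
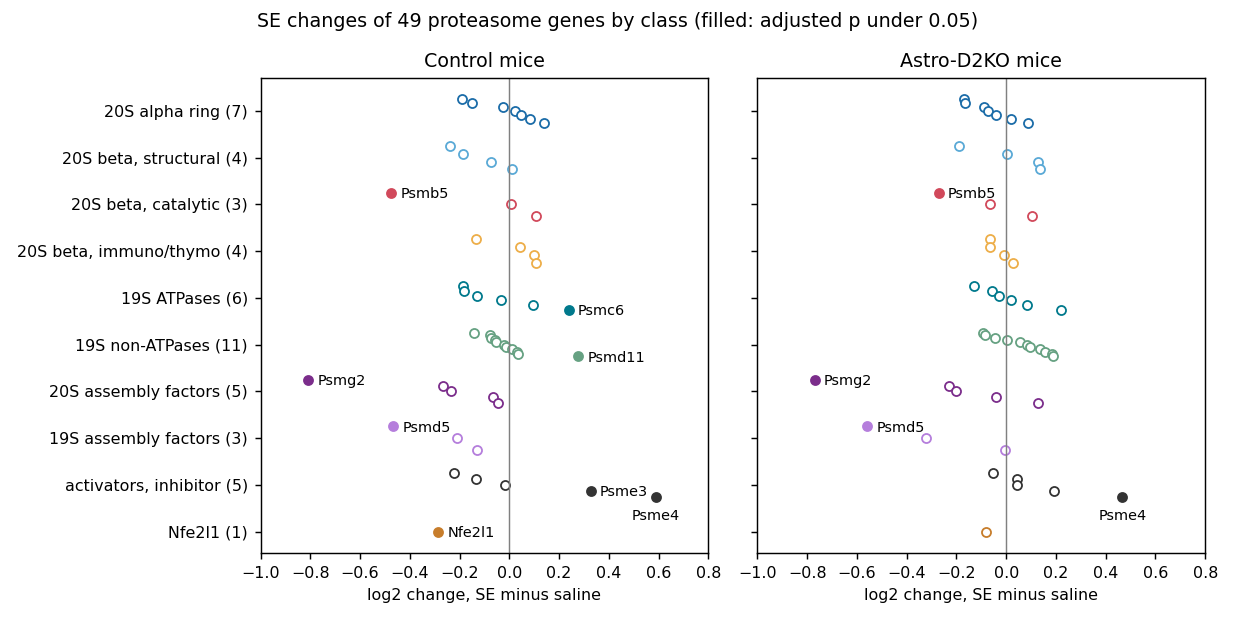
Log2 change after SE (SE minus saline) of each of the 49 proteasome genes, by class, in control mice (left) and Astro-D2KO mice (right); each point is 1 gene, filled where limma's adjusted p was under 0.05, with the number of genes per class in parentheses. Most points lie near 0, the activator Psme4 lies farthest to the right in both genotypes (0.59 and 0.47), and the assembly chaperone Psmg2 lies farthest to the left (-0.81 and -0.77).

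Promoters of the members were searched for the core of the antioxidant response element, TGACNNNGC, to which Nfe2l1 binds with a small Maf partner. Windows of 250 bases before to 50 after the start site came from RefSeq on GRCm38.p6, and 41 of the 49 members matched. The other 8, among them the called member Psmg2, had no window and were not searched. The core was found on either strand in the windows of 6 members (14.6%), Psmb5, Psmb6, Psmc6, Psmd9, Psmd12 and Psme4, against 14.0% of the 27025 genes in the table, so the share was near the background. Of these 6, Psme4 and Psmc6 rose and Psmb5 fell after SE in control mice. Their promoters are printed 5′ to 3′ on the gene's strand, with the core in capitals, because these are the called members with a window that holds it. They are Psme4 (chr11:30771525-30771824, plus strand, first base of the core 7 bases before the start site), Psmc6 (chr14:45329574-45329873, plus strand, 227 bases before) and Psmb5 (chr14:54617946-54618245, minus strand, 47 bases before).
Psme4: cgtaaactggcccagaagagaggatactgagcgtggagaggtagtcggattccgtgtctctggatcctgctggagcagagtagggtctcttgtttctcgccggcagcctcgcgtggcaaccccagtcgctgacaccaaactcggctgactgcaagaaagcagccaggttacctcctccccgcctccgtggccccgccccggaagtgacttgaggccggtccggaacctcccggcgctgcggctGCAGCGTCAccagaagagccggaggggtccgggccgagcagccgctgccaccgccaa
Psmc6: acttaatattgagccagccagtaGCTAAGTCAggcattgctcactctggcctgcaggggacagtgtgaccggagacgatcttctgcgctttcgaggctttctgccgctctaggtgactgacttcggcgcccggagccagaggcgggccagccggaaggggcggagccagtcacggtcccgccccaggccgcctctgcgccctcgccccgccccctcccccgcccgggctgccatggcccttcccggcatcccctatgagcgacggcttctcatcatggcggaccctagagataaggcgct
Psmb5: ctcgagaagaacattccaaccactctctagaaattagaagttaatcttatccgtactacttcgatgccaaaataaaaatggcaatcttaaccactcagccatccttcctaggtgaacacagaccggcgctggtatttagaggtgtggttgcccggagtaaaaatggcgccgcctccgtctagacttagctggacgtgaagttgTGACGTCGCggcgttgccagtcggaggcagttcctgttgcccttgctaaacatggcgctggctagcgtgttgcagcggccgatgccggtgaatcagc
The core reads forward in Psmb5 (TGACGTCGC) and in reverse in Psme4 (GCAGCGTCA) and Psmc6 (GCTAAGTCA). The members with the core had a median SE change of 0.04 in control and 0.09 in Astro-D2KO mice, and those matched without it -0.06 and 0.00. A match of these letters is a description and no site of binding.

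Psme4 encodes the large activator that caps the core particle without using ATP and is known for the degradation of acetylated histones. It read 8.63, 8.54, 8.57 and 8.45 in control saline and 9.03, 9.24, 9.30 and 8.98 in control SE. It read 8.48, 8.47, 8.55 and 8.61 in Astro-D2KO saline and 9.05, 8.98, 8.97 and 8.98 in Astro-D2KO SE. Every SE array lay above every saline array in each genotype. The rise was 0.59 ± 0.079 (standard error, n = 4 per group; 1.51-fold, limma adjusted p = 4.42e-05) in control mice and 0.47 ± 0.079 (1.38-fold, limma adjusted p = 0.00045) in Astro-D2KO mice. The rises differed by -0.12 (95% interval -0.36 to 0.11).

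Psme3 encodes the activator ring of the nucleus. It read 7.63, 7.80, 7.53 and 7.52 in control saline and 7.98, 7.87, 7.81 and 8.11 in control SE. It read 7.75, 7.48, 7.70 and 7.80 in Astro-D2KO saline and 8.00, 7.82, 7.82 and 7.86 in Astro-D2KO SE. The saline and SE arrays did not overlap in either genotype, but the gap was narrow: 7.80 against 7.81 in control mice and 7.80 against 7.82 in Astro-D2KO mice. The rise passed limma's test in control mice (0.33 ± 0.092, 1.26-fold, adjusted p = 0.0159) and not in Astro-D2KO mice (0.19, adjusted p = 0.171). In control mice it was 0.27 (limma adjusted p = 0.0516) without control SE replicate 4 and 0.30 (adjusted p = 0.0517) without control saline replicate 3. Psme1 and Psme2, the activator pair that interferon raises, and the inhibitor Psmf1 did not pass the test in either genotype.

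Psmd11 is the lid subunit that clamps the lid to the core particle. It read 9.32, 9.28, 9.06 and 9.05 in control saline and 9.39, 9.38, 9.37 and 9.69 in control SE. It read 9.23, 9.16, 9.22 and 9.32 in Astro-D2KO saline and 9.46, 9.44, 9.49 and 9.30 in Astro-D2KO SE. The control arrays did not overlap, with control SE replicate 4 standing above the others of its group, and the Astro-D2KO arrays overlapped through SE replicate 4. The rise was 0.28 ± 0.090 in control mice (1.21-fold, limma adjusted p = 0.0342), and 0.19 in Astro-D2KO mice did not pass (adjusted p = 0.161). The control call ended without control SE replicate 4 (0.20, limma adjusted p = 0.111), control saline replicate 3 (0.24, adjusted p = 0.105) or control saline replicate 4 (0.23, adjusted p = 0.0990).

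Psmc6 is an ATPase of the ring that feeds substrates into the core. It read 9.12, 9.0, 9.0 and 8.86 in control saline and 9.15, 9.25, 9.21 and 9.34 in control SE. It read 8.89, 8.98, 9.03 and 9.08 in Astro-D2KO saline and 9.19, 9.36, 9.18 and 9.12 in Astro-D2KO SE. The SE arrays lay above the saline arrays in each genotype. The change was of like size, 0.24 ± 0.079 in control mice (1.18-fold, limma adjusted p = 0.0360) and 0.22 in Astro-D2KO mice (adjusted p = 0.0579), on opposite sides of the threshold. The control call ended in 11 of 26 alternative settings. It ended when any of 6 arrays was left out singly: control saline replicates 2, 3 and 4 and control SE replicates 2, 3 and 4. The limma adjusted p was then between 0.0555 and 0.108. In Astro-D2KO mice the rise was called with each array centred on its median (limma adjusted p = 0.0373) or the lowest 25% of genes left out (adjusted p = 0.0397). A trended and robust fit (limma adjusted p = 0.0364) and array weights (adjusted p = 0.0186) called it there too. The other 5 ATPases did not pass in either genotype.

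The largest fall was that of Psmg2, which pairs with Psmg1 to guide the assembly of the alpha ring. It read 7.58, 7.64, 7.67 and 7.25 in control saline and 6.44, 6.68, 6.77 and 7.02 in control SE. It read 7.48, 7.50, 7.56 and 7.68 in Astro-D2KO saline and 6.74, 6.73, 6.89 and 6.78 in Astro-D2KO SE. All 8 SE arrays were lower than all 8 saline arrays. The fall was 1.75-fold in control mice (-0.81 ± 0.11, limma adjusted p = 6.58e-05) and 1.71-fold in Astro-D2KO mice (-0.77 ± 0.11, limma adjusted p = 0.000115), and the genotypes differed by 0.04 (95% interval -0.30 to 0.37). A second, dim probe set of Psmg2, with a mean of 3.72, did not fall: its SE minus saline difference was 0.15 in control mice (exact permutation p = 0.171) and 0.02 in Astro-D2KO mice (exact permutation p = 0.571). With the mean of both probe sets the change of Psmg2 was -0.33 in control and -0.37 in Astro-D2KO mice, and it still passed. The other chaperones of the core, Psmg1, Psmg3, Psmg4 and Pomp, did not pass in either genotype.

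Psmd5, a chaperone of the cap's ATPase ring that leaves before the cap is finished, read 9.29, 9.47, 9.51 and 9.36 in control saline and 8.79, 8.90, 9.02 and 9.07 in control SE. It read 9.51, 9.43, 9.47 and 9.63 in Astro-D2KO saline and 8.76, 9.13, 9.05 and 8.87 in Astro-D2KO SE. No SE array reached the lowest saline array. The fall was 1.38-fold in control mice (-0.47 ± 0.093, limma adjusted p = 0.00143) and 1.47-fold in Astro-D2KO mice (-0.56 ± 0.093, adjusted p = 0.00039). The other chaperones of the cap are Psmd9 and Psmd10, and neither passed. Psmd10, also known as gankyrin, changed by -0.21 in control mice (limma adjusted p = 0.225) and by -0.32 in Astro-D2KO mice (adjusted p = 0.0600).

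Psmb5 holds the chymotrypsin-like active site, the target of bortezomib. It read 8.06, 7.93, 7.99 and 8.03 in control saline and 7.55, 7.52, 7.42 and 7.63 in control SE. It read 8.08, 7.94, 7.84 and 7.82 in Astro-D2KO saline and 7.68, 7.68, 7.63 and 7.60 in Astro-D2KO SE. The SE arrays were lower than the saline arrays in each genotype, with the wider gap in control mice. The fall was 1.39-fold in control mice (-0.47 ± 0.075, limma adjusted p = 0.000202) and 1.21-fold in Astro-D2KO mice (-0.27 ± 0.075, adjusted p = 0.0148), where the call ended without Astro-D2KO saline replicate 1 (-0.22, adjusted p = 0.0626). The difference between the falls, 0.20, had a 95% interval of -0.02 to 0.42.

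The other catalytic subunits did not follow Psmb5. Psmb6, the caspase-like subunit, read 7.82, 7.70, 7.63 and 7.80 in control saline, 8.01, 7.67, 7.74 and 7.96 in control SE, 7.78, 7.76, 7.79 and 7.70 in Astro-D2KO saline and 7.81, 7.90, 7.92 and 7.83 in Astro-D2KO SE. Its change was 0.11 in each genotype (limma adjusted p = 0.399 and 0.429), and only the Astro-D2KO arrays did not overlap. Psmb7, the trypsin-like subunit, read 9.84, 9.61, 9.57 and 9.57 in control saline, 9.62, 9.63, 9.67 and 9.71 in control SE, 9.73, 9.74, 9.74 and 9.64 in Astro-D2KO saline and 9.73, 9.70, 9.53 and 9.64 in Astro-D2KO SE. Its changes of 0.01 and -0.06 did not pass (limma adjusted p = 0.974 and 0.634), and the arrays overlapped.

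The immunoproteasome subunits that take the places of the catalytic ones did not pass either. Psmb8 read 6.18, 5.90, 5.86 and 5.95 in control saline, 6.10, 5.96, 6.00 and 6.01 in control SE, 5.99, 5.95, 6.03 and 6.01 in Astro-D2KO saline and 5.83, 6.02, 6.09 and 5.77 in Astro-D2KO SE. Psmb9 read 4.78, 4.90, 5.17 and 5.07 in control saline, 5.17, 4.91, 5.17 and 5.06 in control SE, 5.02, 4.89, 5.07 and 4.96 in Astro-D2KO saline and 5.05, 5.04, 5.13 and 4.84 in Astro-D2KO SE. Psmb10 read 7.87, 7.77, 7.57 and 7.71 in control saline, 7.55, 7.89, 7.39 and 7.54 in control SE, 7.69, 7.63, 7.60 and 7.66 in Astro-D2KO saline and 7.64, 7.52, 7.62 and 7.54 in Astro-D2KO SE. The saline and SE arrays overlapped for all 3 in each genotype. Their changes lay between -0.14 (Psmb10) and 0.10 (Psmb9) in control mice, with limma adjusted p of 0.350 to 0.790, and between -0.07 and 0.03 in Astro-D2KO mice. Without control SE replicate 2, Psmb10 was called lower in control mice (-0.24, limma adjusted p = 0.0490). Psmb9 read low, with a mean over all arrays of 5.01, at percentile 25.6 of all genes.

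Nfe2l1 read 8.47, 8.37, 8.33 and 8.33 in control saline and 7.97, 8.10, 8.05 and 8.23 in control SE. It read 8.30, 8.24, 8.29 and 8.29 in Astro-D2KO saline and 8.05, 8.29, 8.16 and 8.29 in Astro-D2KO SE. The control arrays did not overlap, and the Astro-D2KO arrays did. The fall was 1.22-fold in control mice (-0.29 ± 0.077, limma adjusted p = 0.0118), and the change in Astro-D2KO mice did not pass (-0.08, adjusted p = 0.522). The difference between the genotypes was 0.20 (95% interval -0.03 to 0.43) and did not pass. Pomp, the maturation chaperone of the beta ring and a known target of Nfe2l1, read 8.68, 8.63, 8.50 and 8.48 in control saline, 8.53, 8.59, 8.31 and 8.66 in control SE, 8.62, 8.67, 8.60 and 8.73 in Astro-D2KO saline and 8.66, 8.48, 8.62 and 8.05 in Astro-D2KO SE. Its changes were -0.05 (limma adjusted p = 0.83) and -0.20 (adjusted p = 0.249), the lowest value being 1 array of Astro-D2KO SE.

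**Figure D2:**
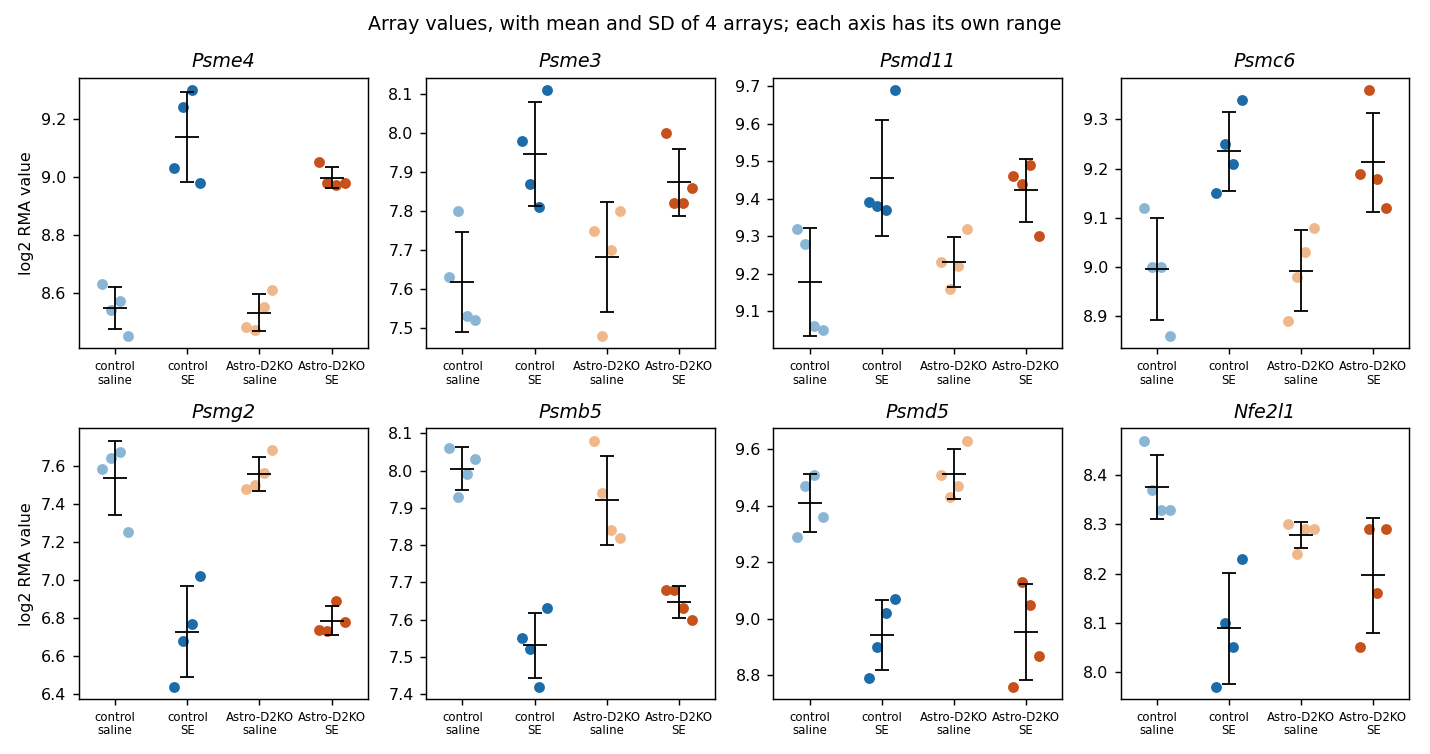
Log2 array values of the 8 members called after SE in control mice, by group; points are arrays, bars are the mean and standard deviation of 4 arrays, and each axis has its own range. Psme4 and Psmc6 are higher in every SE array of each genotype, Psmg2, Psmd5 and Psmb5 are lower in every SE array, and Nfe2l1 separates the arrays of control mice but not those of Astro-D2KO mice.

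By class, the structural parts of the particle moved little. The 7 alpha ring genes had changes from -0.19 to 0.14 in control mice and from -0.17 to 0.09 in Astro-D2KO mice, and 0 of them passed in either. The 4 structural beta genes had a median change of -0.13 in control and 0.07 in Astro-D2KO mice, with 0 passing. The 11 cap non-ATPases had medians of -0.02 and 0.08, with Psmd11 in control mice the only call. Among the classes of more than 1 gene, the assembly chaperones had the lowest medians: -0.24 (core) and -0.21 (cap) in control mice and -0.20 and -0.32 in Astro-D2KO mice, where each class had 1 call. The mean of the 3 cap chaperones was 7.90 to 7.96 on control saline arrays and 7.51 to 7.78 on control SE arrays, and 7.84 to 8.02 and 7.48 to 7.80 on the Astro-D2KO arrays. The groups did not overlap in this class. The mean of the 5 core chaperones was 6.91 to 7.11 and 6.55 to 6.91 on the control arrays, and 6.96 to 7.05 and 6.66 to 6.85 on the Astro-D2KO arrays.

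The array labelled control SE replicate 4 was the highest of its group in the alpha ring (class mean 7.73, the other arrays 7.53 to 7.55), the ATPases (8.78 against 8.49 to 8.67) and the non-ATPases (8.75 against 8.47 to 8.55). It also held the highest control SE value of Psme3, Psmd11 and Psmc6. Control saline replicate 1 had the highest alpha ring mean of its group in the same way. Spread of this kind within a group was as large as the SE change of these classes.

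**Figure D3:**
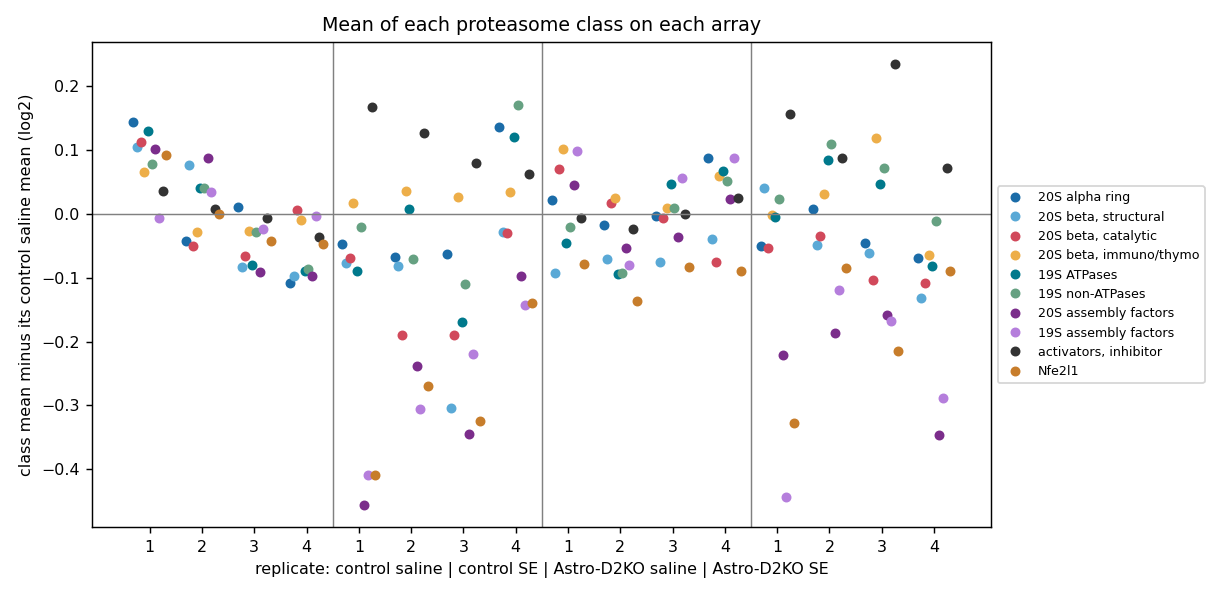
Mean log2 value of each class on each of the 16 arrays, less the mean of that class over the control saline arrays; colours mark classes, and vertical lines separate the groups. The chaperone classes lie low in the SE arrays. Nfe2l1 lies low there too, and also in the Astro-D2KO saline arrays (8.24 to 8.30, against a control saline mean of 8.375). The activator mean lies high in the SE arrays, although the median change of that class was -0.016 in control and 0.045 in Astro-D2KO mice. The alpha ring and cap classes of control SE replicate 4 lie above those of the other control SE arrays.

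Between saline and SE, 11 members (22.4%) had arrays that did not overlap in control mice, 4 higher and 7 lower, against 22.1% of all genes (8.46% higher and 13.7% lower). In Astro-D2KO mice there were 10 (20.4%), 6 higher and 4 lower, against 24.6% of all genes (9.54% higher and 15.1% lower). Both shares were near those of all genes. Without both arrays set apart by Dio2 there were 12 in control mice (24.5%, against 28.6% of all genes) and 11 in Astro-D2KO mice (22.4%, against 29.2%). With fewer arrays in a group, a lack of overlap arises more often by chance. The members without overlap in control mice that limma did not call were Psmb1, Psmc3 and Psme1, all lower. Calls were also gained when 1 array was left out. In control mice Psmb1 (-0.28, limma adjusted p = 0.0424) and Psmg3 (-0.30, adjusted p = 0.0410) were called lower without control SE replicate 2, and Psme1 (-0.26, adjusted p = 0.0436) without control SE replicate 1. In Astro-D2KO mice Psmd10 (-0.38, limma adjusted p = 0.0419) was called lower without SE replicate 3. The spread is shared by all groups, so leaving out an array of another group also gave calls of Psmb1 and Psme1 (without Astro-D2KO saline replicate 3, adjusted p = 0.0369 and 0.0370) and of Psmd10 (without control SE replicate 1, adjusted p = 0.0347). For 4 arrays against 4 an exact two-sided permutation test has 70 arrangements and cannot give a p below 0.0286, the value of each of the 8 called members in control mice.

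Several genes that work beside the proteasome rose in both genotypes. Of 18 measured genes for ubiquitin activation and for proteins that dock on the proteasome, 5 rose (27.8%, against 8.42% of all genes called higher) and 1 fell in control mice by limma. In Astro-D2KO mice 6 rose (33.3%, against 7.49%) and 0 fell, with medians near 0 (-0.02 and 0.00). Txnl1, a thioredoxin-like protein bound to the cap, rose by 0.97 ± 0.070 in control mice (limma adjusted p = 5.53e-08) and 0.83 in Astro-D2KO mice. Uba6, an alternative ubiquitin-activating enzyme, rose by 0.83 ± 0.095 (limma adjusted p = 8.85e-06) and 0.66. Zfand5, which binds the proteasome and speeds degradation, rose by 0.68 ± 0.077 (limma adjusted p = 7.81e-06) and 0.64, and Zfand2a, its arsenite-induced relative, by 0.35 and 0.33. The shuttle factor Ubqln4 fell in control mice (-0.28, limma adjusted p = 0.0117) and did not pass in Astro-D2KO mice (-0.15, adjusted p = 0.183). The unfoldase Vcp (-0.03 and -0.01) and the deubiquitinase Usp14 (-0.02 and -0.13) did not pass.

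**Figure D4:**
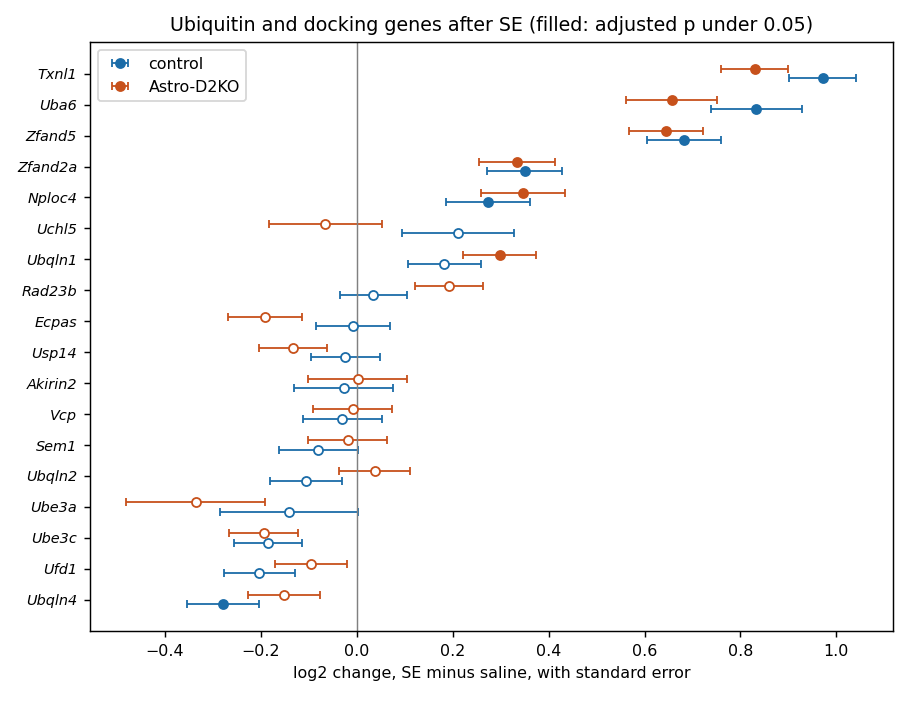
Log2 change after SE (SE minus saline), with its standard error, of the 18 measured ubiquitin and docking genes in control and Astro-D2KO mice; filled points passed limma's test at an adjusted p under 0.05. Txnl1, Uba6 and Zfand5 rose by 0.64 to 0.97 in both genotypes, and most other genes lie near 0.

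Of 12 measured genes that process Nfe2l1 or pair with it or its relatives, 3 rose (25%) and 3 fell (25%) in control mice. The same test called 8.42% of all genes higher and 13.7% lower. In Astro-D2KO mice 3 rose (25%, against 7.49% of all genes) and 2 fell (16.7%, near the 12.6% of all genes). Of the small Maf partners, Mafk rose by 0.69 ± 0.087 (limma adjusted p = 2.58e-05) in control and 0.64 in Astro-D2KO mice, and Maff by 0.56 and 0.73. Mafg did not pass in either genotype (0.18, limma adjusted p = 0.265, and 0.17, adjusted p = 0.307). Fbxw7, an adaptor of a ubiquitin ligase that targets Nfe2l1, rose by 0.47 and 0.48. Ngly1, which removes glycans from Nfe2l1 before it enters the nucleus, fell by 0.64 ± 0.11 (limma adjusted p = 0.00036) in control and by 0.54 in Astro-D2KO mice. Ogt, which modifies many proteins with O-GlcNAc, fell by 0.54 and 0.62. Keap1, the adaptor that holds Nfe2l2 for degradation, fell by 0.46 in control mice (limma adjusted p = 0.00123), and its change of -0.21 in Astro-D2KO mice did not pass (adjusted p = 0.114).

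Of 10 measured genes for misfolded protein stress, 8 rose (80.0%) and 0 fell in each genotype. Of all genes 8.42% were called higher in control and 7.49% in Astro-D2KO mice. The list medians were 1.41 in control and 0.98 in Astro-D2KO mice. The chaperone Hspa1a rose by 4.95 ± 0.32 (limma adjusted p = 1.85e-08) in control and 4.30 in Astro-D2KO mice, and its co-chaperones Dnajb1 and Bag3 rose by 2.11 and 1.96 in control mice. Of 12 measured genes for antigen processing and interferon response, 0 rose and 2 fell in each genotype (16.7%), near the 13.7% and 12.6% of all genes called lower. Both are subunits of the interferon gamma receptor, Ifngr2 (-0.41 and -0.51) and Ifngr1 (-0.25 and -0.37).

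Some markers of microglia, the resident immune cells of the brain, fell after SE. Of 11 measured, 0 rose and 3 fell in control mice (27.3%, against 13.7% of all genes called lower), and 0 rose and 4 fell in Astro-D2KO mice (36.4%, against 12.6%). Their list mean was 7.42 to 7.62 in control saline, 7.07 to 7.42 in control SE, 7.52 to 7.61 in Astro-D2KO saline and 7.07 to 7.35 in Astro-D2KO SE. Of 10 neuronal markers 2 rose and 2 fell in control mice and 3 rose and 1 fell in Astro-D2KO mice, and of 10 astrocyte markers 1 rose and 2 fell, and 1 rose and 1 fell. Of 10 endothelial markers 3 rose and 2 fell in control mice, and 3 rose and 1 fell in Astro-D2KO mice. Of 7 oligodendrocyte markers 0 passed in control mice and 2 fell in Astro-D2KO mice, and of 5 blood cell markers 2 rose in control mice and 0 passed in Astro-D2KO mice. None of the 7 choroid plexus markers passed in either. Beside these counts, limma called 8.42% of all genes higher and 13.7% lower in control mice, and 7.49% and 12.6% in Astro-D2KO mice. No marker on an array is at 0, and the part of these markers in the changes of the proteasome genes was not tested.

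No member was called between the genotypes. Under saline limma called 0 of the 49 members and 0 of all genes (0%), and at an unadjusted p under 0.05 it gave 2 members, against 3.99% of all genes. The targeted gene Dio2 was not called either. It differed by -1.36 ± 0.35 under saline (limma adjusted p = 0.999) and by -1.41 ± 0.35 after SE (adjusted p = 0.532). The lack of a call is therefore no evidence that a gene is alike in both genotypes. Psmb11, the thymus-specific subunit, read 5.60, 5.48, 5.45 and 5.39 in control and 5.87, 5.78, 5.50 and 5.77 in Astro-D2KO saline, a difference of 0.25 ± 0.091 (limma adjusted p = 0.999). Psmg3, a core chaperone that works with Psmg4, read 6.85, 6.78, 6.72 and 6.84 in control and 6.67, 6.62, 6.48 and 6.55 in Astro-D2KO saline, a difference of -0.22 ± 0.097 (limma adjusted p = 0.999). The arrays of Psmb11 overlapped and those of Psmg3 did not. The alpha ring subunit Psma5 read 5.14, 5.16, 5.25 and 4.95 in control and 4.96, 4.90, 4.83 and 5.01 in Astro-D2KO saline, overlapping, with a difference of -0.20 ± 0.10. Psmb11 and Psma5 read low, with means over all arrays of 5.63 and 4.97, at percentiles 37.5 and 24.7 of all genes. Psmg3 and Nfe2l1 were the 2 members whose arrays did not overlap, both lower in Astro-D2KO mice (4.08% of the members), against 2.61% of all genes (1.27% higher and 1.34% lower).

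After SE limma also called 0 of the 49 members and 0 of all genes (0%) between the genotypes, and 0 members had an unadjusted p under 0.05, against 6.12% of all genes. The structural beta subunit Psmb4 read 7.78, 7.62, 7.30 and 7.88 in control SE and 8.02, 7.91, 7.89 and 7.63 in Astro-D2KO SE, a difference of 0.22 ± 0.11 (limma adjusted p = 0.827). Psmd2, a scaffold of the cap base, read 8.86, 8.85, 8.67 and 9.19 in control SE and 8.98, 9.16, 9.13 and 9.01 in Astro-D2KO SE, a difference of 0.18 ± 0.093 (limma adjusted p = 0.847). The arrays overlapped in both, and in Psmd2 they did so only through control SE replicate 4. The next by p was Psme4, at -0.14 ± 0.079 (limma adjusted p = 0.855), and 0 members were without overlap, against 2.94% of all genes (1.53% higher and 1.4% lower). Without the array labelled control SE replicate 4, 4 members were higher and 1 lower in Astro-D2KO SE at an unadjusted p under 0.05 (10.2%, against 10.4% of all genes). Without both arrays set apart by Dio2, 6 were higher and 1 lower (14.3%, against 11.3% of all genes). In that setting 8 members lay above and 2 below without overlap (20.4%, against 16.5% of all genes). With fewer arrays in each group a lack of overlap arises more often by chance, so these shares cannot be set against those of all arrays. Without control SE replicate 4 or without both arrays, 0 of the members passed after adjustment.

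Each interval gives a range for the difference of 1 member on its own, and the 49 intervals are no joint bound. Those after SE include both arrays set apart by Dio2, and none was made without them. In both genotype comparisons the 95% interval of all 49 members lay within 1.5-fold of no difference, and the intervals reached a median of 0.196 to either side on the log2 scale. Under saline the differences ran from -0.22 (Psmg3) to 0.25 (Psmb11), and after SE from -0.14 (Psme4) to 0.22 (Psmb4). The intervals are not limits of detection. Under saline those of Psmg3 and Psmb11 left out 0, and neither gene passed after adjustment over all genes. Small differences can go undetected with 4 arrays a group.

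**Figure D5:**
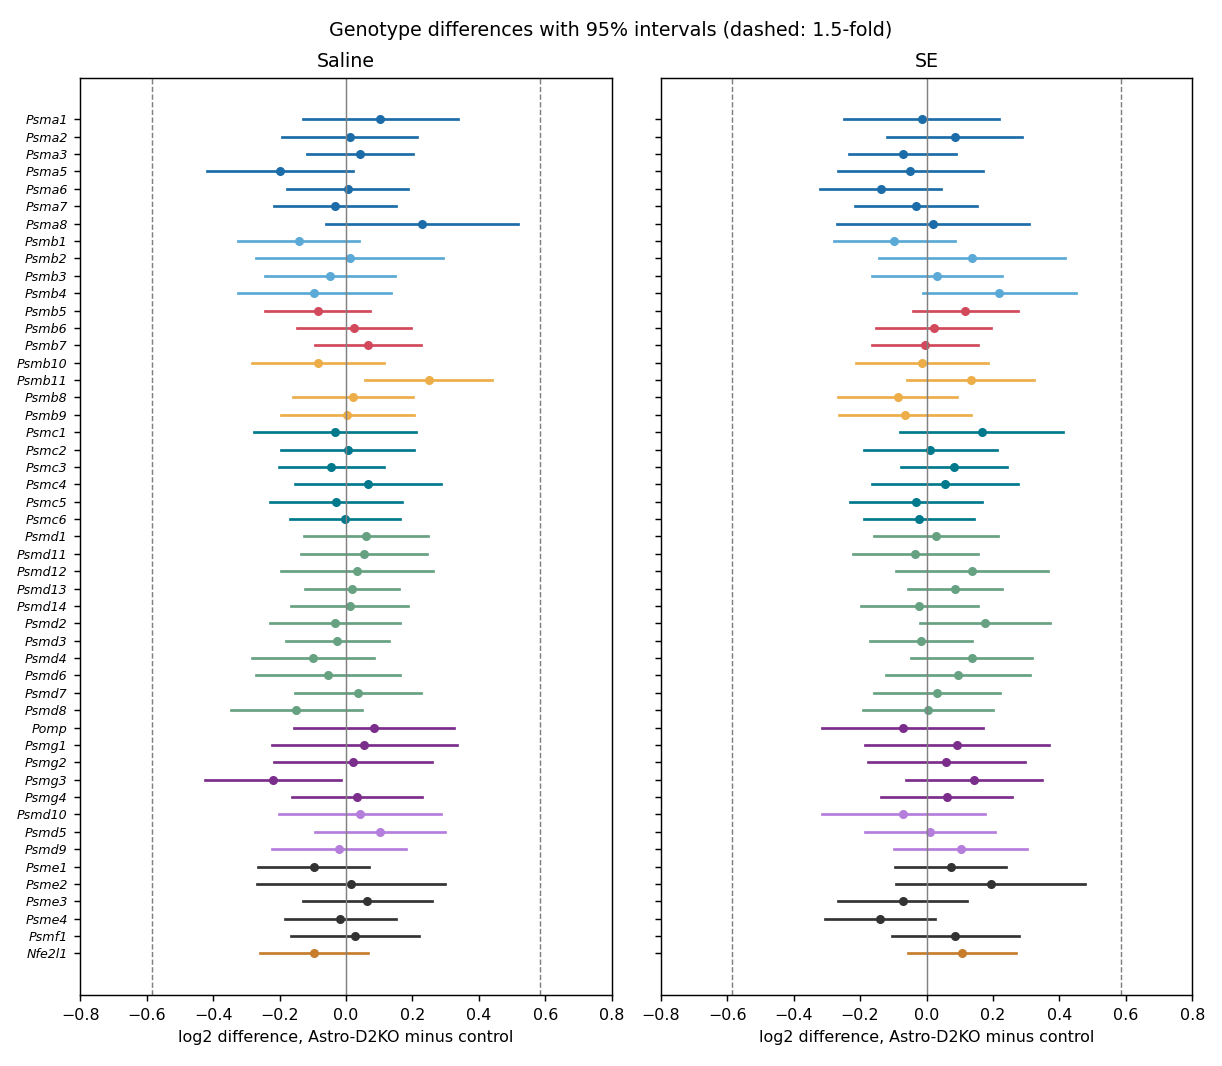
Log2 difference between Astro-D2KO and control mice for each of the 49 members under saline and after SE, with limma's 95% interval; dashed lines mark 1.5-fold. All intervals lie between the dashed lines, and 0 members passed after adjustment in either comparison.

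The interaction, which is the SE change in Astro-D2KO less the SE change in control mice, gave 0 calls among the 49 members and 0 among all genes (0%) by limma, with 1 member at an unadjusted p under 0.05, against 4.65% of all genes. Without both arrays set apart by Dio2 there were 4 (8.16%, against 6.67% of all genes), and 0 passed after adjustment. With all arrays that member was Psmg3, which read 6.42, 6.76, 6.38 and 6.70 in control SE and 6.57, 6.93, 6.66 and 6.67 in Astro-D2KO SE, with an interaction of 0.36 ± 0.14 (limma adjusted p = 0.998). Psmb4 (0.32 ± 0.15) and Psmd4 (0.24 ± 0.12), a ubiquitin receptor of the cap, came next (limma adjusted p = 0.998 for both). Psmd4 read 7.91, 7.97, 7.86 and 7.84 in control saline, 7.86, 7.73, 7.63 and 7.80 in control SE, 7.67, 7.62, 7.98 and 7.92 in Astro-D2KO saline and 7.95, 7.91, 7.91 and 7.79 in Astro-D2KO SE, with every pair of groups overlapping. Psmb4 read 7.89, 7.85, 7.81 and 7.77 in control saline and 7.70, 7.72, 7.67 and 7.85 in Astro-D2KO saline. For 46 of the 49 members the 95% interval of the interaction lay within 1.5-fold. Calls that appear in control mice alone, those of Psme3, Psmd11, Psmc6 and Nfe2l1, are therefore not shown to differ between the genotypes.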

How the data were processed

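The deposited log2 values were made by the authors with RMA, per the submitters' processing notes, which corrects background, normalises by quantiles and summarises probe sets. The log base was inferred from a range of 1.70 to 13.79; no log base or array model is given in the sources used here. Of 41345 probe sets, 23521 carried exactly 1 symbol in the platform annotation, and the highest-mean probe set per gene gave 22180 genes, with none filtered out. Arrays have no read depth, so 4 arrays per group limit the precision.

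Limma 3.58.1 (R 4.3.3) fitted 1 mean per group to all 16 arrays, with default empirical Bayes, two-sided tests and Benjamini-Hochberg adjustment over all genes in each of 5 contrasts. The fit was tested on simulated data. Errors are standard errors, and intervals are 95%. Motifs were searched in RefSeq promoters.

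The members, classes and lists were chosen with earlier results of these data known. Values are given in full for Nfe2l1, Pomp, the catalytic and immunoproteasome subunits, up to 4 called members per direction in each SE contrast, and the 3 of smallest p in each genotype contrast and the interaction. In each pathway list up to 4 called genes per direction are named; Vcp, Usp14, Psmd10, Psmb1, Psmc3 and Psme1 were named after their values were seen. Alternatives covered centring, probe set choice, low genes, the fit, weights, a replicate block and left-out arrays. Counts without overlap and past 1.2-fold without both arrays set apart by Dio2 were added after seeing the data.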

Additional observations from a re-analysis of the deposited data

Results flagged for a closer look

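In 80 groups of 4 arrays (20 named members in 4 groups), 4 had an array that stood apart by Dixon's test of the gap to the nearest array over the range; chance gives about 1 in 20 groups. Psmb7 read 9.84 in control saline replicate 1, where the other arrays were at 9.57 to 9.61. Psmb7 also read 9.64 in Astro-D2KO saline replicate 4, below the others at 9.73 to 9.74. Psmd11 read 9.69 in control SE replicate 4, above the others at 9.37 to 9.39, and its call after SE ended without that array. Psme4 read 9.05 in Astro-D2KO SE replicate 1, where the others were at 8.97 to 8.98; its rise in Astro-D2KO mice was called without that array too.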

How the results depend on the processing

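No called change of the named members turned its sign under the alternatives run, and 0 members were called between the genotypes or in the interaction under all of them. In control mice the 4 members called higher became 1 when a minimum change of 1.2-fold was required. They became 2 with only the 2 groups of the comparison in the fit, and 1 without both arrays set apart by Dio2. Leaving out each array in turn gave 1 to 4. The 4 called lower became 1 with the minimum change, and leaving out each array gave 4 to 7, the 7 without control SE replicate 2. In Astro-D2KO mice the 1 called higher became 2 with each array centred on its median, with the lowest 25% of genes left out, with a trended and robust fit or with array weights, and 0 with the minimum change; leaving out each array gave 1 in every case. The 3 called lower became 1 with the minimum change and 2 to 4 when each array was left out. Psmg2 in both genotypes and Psme4 in control mice passed under every alternative run, but the mean of all probe sets of a gene cut the change of Psmg2 to -0.33 in control and -0.37 in Astro-D2KO mice. Small changes that were not called turned sign 10 times in 3 results. That of Psmb7 in control mice became -0.0488 when quantile normalisation was repeated and -0.0135 without both arrays set apart by Dio2. It ran from -0.0216 to 0.0698 when each array was left out. That of Psmb9 in Astro-D2KO mice became -0.0172 with quantile normalisation repeated and ran from -0.0088 to 0.0871 when each array was left out. That of Pomp in control mice ran from -0.0944 to 0.0227 when each array was left out. Where a count moved, the cause was not tested. The shares of all genes called under these alternatives are not given here. The counts therefore do not show whether calls of the members moved more than those of other genes.

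The labels do not say what the replicate numbers mark. Over 24 same-numbered pairs of arrays the correlation of deviations from the group means ran from -0.286 to 0.338, with a median of -0.032. Over 72 differently numbered pairs it ran from -0.319 to 0.299, with a median of -0.008. No pairing was seen in these correlations, which cannot exclude one. With the replicate block, 2 members were called higher and 4 lower in control mice, and 1 higher and 3 lower in Astro-D2KO mice. The share of all genes called with the block is not given here either. Small changes are limited by 4 arrays a group, by RNA of whole tissue and by probe sets that need not respond alike.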

Other observations

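Psma5 and Psmc2, like Psmg2, have a second, dim probe set. That of Psma5, an alpha ring subunit, had a mean of 4.44 and an SE minus saline difference of -0.06 in control mice (exact permutation p = 0.486) and 0.25 in Astro-D2KO mice (exact permutation p = 0.400). That of Psmc2, a cap ATPase, had a mean of 4.72 and differences of 0.02 (exact permutation p = 0.857) and 0.03 (exact permutation p = 0.743). In the same promoter windows the cyclic AMP response element TGACGTCA was found in 0 of 41 matched members, against 2.03% of genes in the table, and the AP-1 element TGANTCA in 2 (4.88%), against 8.97%.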
